A study of Homo sapiens with 5 samples.

Results

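GLRX5 and 8 further genes of mitochondrial iron-sulfur cluster assembly (ISCA1, ISCA2, IBA57, NFU1, BOLA3, ISCU, NFS1 and HSCB) were followed in RH4 cells, 9 of the 13822 genes in the deposited expression table. The genes were taken by symbol, and the group was selected on values measured in the comparison described here, so their differences are given as a description and carry no test. RH4 is an established alveolar rhabdomyosarcoma line, a muscle-lineage tumour. Cells received 30 nM of either a non-targeting control siRNA (si-SCR, 3 biological replicates) or an siRNA designed against the circular RNA of the VAMP3 gene (si-circVAMP3, 2 biological replicates), in both cases with the Dharmafect-1 reagent. Collection followed 24 h of transfection and a further 24 h of culture in fresh medium. Polyadenylated RNA was sequenced with strand information, and levels are FPKM, fragment counts scaled to the exon length of the gene and to the size of the library.

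Iron-sulfur clusters are cofactors of respiratory complexes, of the enzyme that makes lipoate and of several DNA polymerases and helicases. In mitochondria, NFS1 releases sulfur from cysteine and ISCU is the scaffold on which a cluster forms, after which the co-chaperone HSCB and the chaperone HSPA9 hand it to the glutaredoxin GLRX5. From there ISCA1, ISCA2 and IBA57 build the larger cluster type, and NFU1 and BOLA3 deliver it to enzymes such as lipoate synthase. Inherited loss of GLRX5 is known for sideroblastic anaemia, and inherited ISCU defects for a myopathy with exercise intolerance.

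The siRNA is shown first because it defines the treated group. It is printed as supplied by the study's reagent list, and capitals mark the bases that lie in exon 3 of VAMP3.
si-circVAMP3 siRNA: caucaucgGUGGUGGACAUuu
Of the 19 bases before the uu overhang, the first 8 were the end of exon 4 (chr1:7778118-7778169, GRCh38) and the other 11 the start of exon 3 (chr1:7777160-7777318), an order that exists where exon 4 is joined back to exon 3. The linear VAMP3 transcript shared a run of 12 bases with it, at the junction of exons 2 and 3.

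VAMP3, the host gene and a vesicle membrane protein, stood at 36.4, 35.4 and 37.4 FPKM in the si-SCR replicates and at 29.4 and 30.2 FPKM in the si-circVAMP3 replicates. The ranges did not overlap, and VAMP3 fell by 0.29 on the log2(FPKM + 0.5) scale (standard error 0.043, limma adjusted p = 0.00474, lower in 2 of 2 treated samples). These gene-level values from polyadenylated RNA give no value for the circular RNA itself, so its depletion was not checked here. Reads recovered for the genes in the table summed to 26064850, 24694435 and 24583875 read pairs for si-SCR and 18358442 and 28401864 read pairs for si-circVAMP3. These sums can be too low, since a factor common to all counts of a gene is not recovered. The 15 genes of the mitochondrial genome took 20.9, 21.7 and 20.9% of the summed FPKM in si-SCR and 19.6 and 18.6% in si-circVAMP3, ranges that did not overlap, and the part of this difference in the iron-sulfur values was not tested. The principal component with the most variance, 68.6%, separated the groups, and on the next, with 17.8%, si-SCR replicate 3 stood at -12.2 against 9.0 and 4.4 for the other si-SCR replicates.

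The cell type label was checked against markers. All 10 alveolar rhabdomyosarcoma markers were measured and 3 were called (30%, beside 32.7% of all genes), all lower. Desmin (DES) was the most abundant at 248 to 291 FPKM, and MYOD1, a myogenic transcription factor, stood at 84.3 to 127 FPKM. MYOG, which drives late myogenic differentiation, fell by 0.76 on the log2 scale (standard error 0.081, limma adjusted p = 0.00151), from 175, 179 and 149 FPKM in si-SCR to 101 and 96.6 FPKM in si-circVAMP3. The acetylcholine receptor subunit CHRNG fell by 0.59 (limma adjusted p = 0.000728), and FOXO1, a transcription factor whose gene is fused in this tumour, fell by 0.26 (limma adjusted p = 0.0225). The FOXO1 call was lost without si-SCR replicate 2 and without either si-circVAMP3 replicate (limma adjusted p 0.0151 to 0.147 over the alternatives). DES and the receptor FGFR4, the 2 most abundant, were not called, at -0.11 (limma adjusted p = 0.336) and -0.26 (limma adjusted p = 0.0961). Without si-SCR replicate 3 both were called, at -0.18 and -0.37, and the calls in the list became 5 (limma adjusted p 0.0251 to 0.751 for DES and 0.00332 to 0.359 for FGFR4 over the alternatives). MYOD1 and MYMK, which muscle cells need to fuse, had differences in the other direction, 0.20 (limma adjusted p = 0.31) and 0.26 (limma adjusted p = 0.246), and were not called. The summed level of the 10 markers was 994, 981 and 846 FPKM in si-SCR and 809 and 821 FPKM in si-circVAMP3. The part of the marker differences in the iron-sulfur values was not tested. None of the 5 epithelial or 5 leukocyte markers had a row in the table, so their rows give no level. Of the 4 endothelial markers, PECAM1 had a row and stayed at or below 0.153 FPKM, and among the 6 fibroblast markers COL3A1 was the most abundant at 27.1 to 33.6 FPKM (log2 difference -0.18, limma adjusted p = 0.05, not called, but called under 5 of 15 alternatives, among them without si-SCR replicate 3, at 0.0278 to 0.282 over all), with COL1A1, DCN and PDGFRA below 1 FPKM in each sample. In such bulk RNA, fewer cells with a transcript and less of it per cell cannot be told apart.

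GLRX5, the monothiol glutaredoxin that carries a cluster away from the scaffold, was the member that stood apart. It measured 39.0, 36.9 and 36.7 FPKM in the si-SCR replicates and 8.11 and 8.78 FPKM in the si-circVAMP3 replicates. Both treated samples lay below all 3 controls, by far more than the samples of either group differed. The group means were 37.6 ± 1.29 FPKM (SD, n = 3) and 8.45 ± 0.475 FPKM (SD, n = 2), so that the treated cells held 22.5% of the control level. On the log2(FPKM + 0.5) scale the difference was -2.09 with a standard error of 0.054. These levels rested on 2487, 2204 and 2187 read pairs in si-SCR and on 359 and 604 in si-circVAMP3.

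The GLRX5 gene (ENSG00000182512) lies at chr14:95533503-95544724 on the plus strand of GRCh38, and its main transcript has 2 exons and 1103 bases. Its coding sequence holds 157 codons. The stretch that encodes the active site of this glutaredoxin class, which has a lone cysteine, is shown because GLRX5 shares it with GLRX3, the cytosolic member of the class. Capitals mark the 4 active-site codons, at codons 67 to 70 of GLRX5 and at codons 159 to 162 and 261 to 264 of GLRX3, which has the site in 2 domains.
GLRX5: cagccccagTGCGGCTTCAGCaacgccgtg
GLRX3 site 1: gaaccacgcTGTGGTTTCAGCaagcagatg
GLRX3 site 2: gaagcaaaaTGTGGATTCAGCaaacaaatt
GLRX3 moved the other way from GLRX5. It measured 20.98, 21.1 and 21.4 FPKM in si-SCR and 24.9 and 26.7 FPKM in si-circVAMP3, a rise of 0.28 on the log2 scale (standard error 0.047, limma adjusted p = 0.00694). That call was lost without si-circVAMP3 replicate 2 (limma adjusted p = 0.0623, the highest of a range from 0.00271 over the alternatives).

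**Figure D1:**
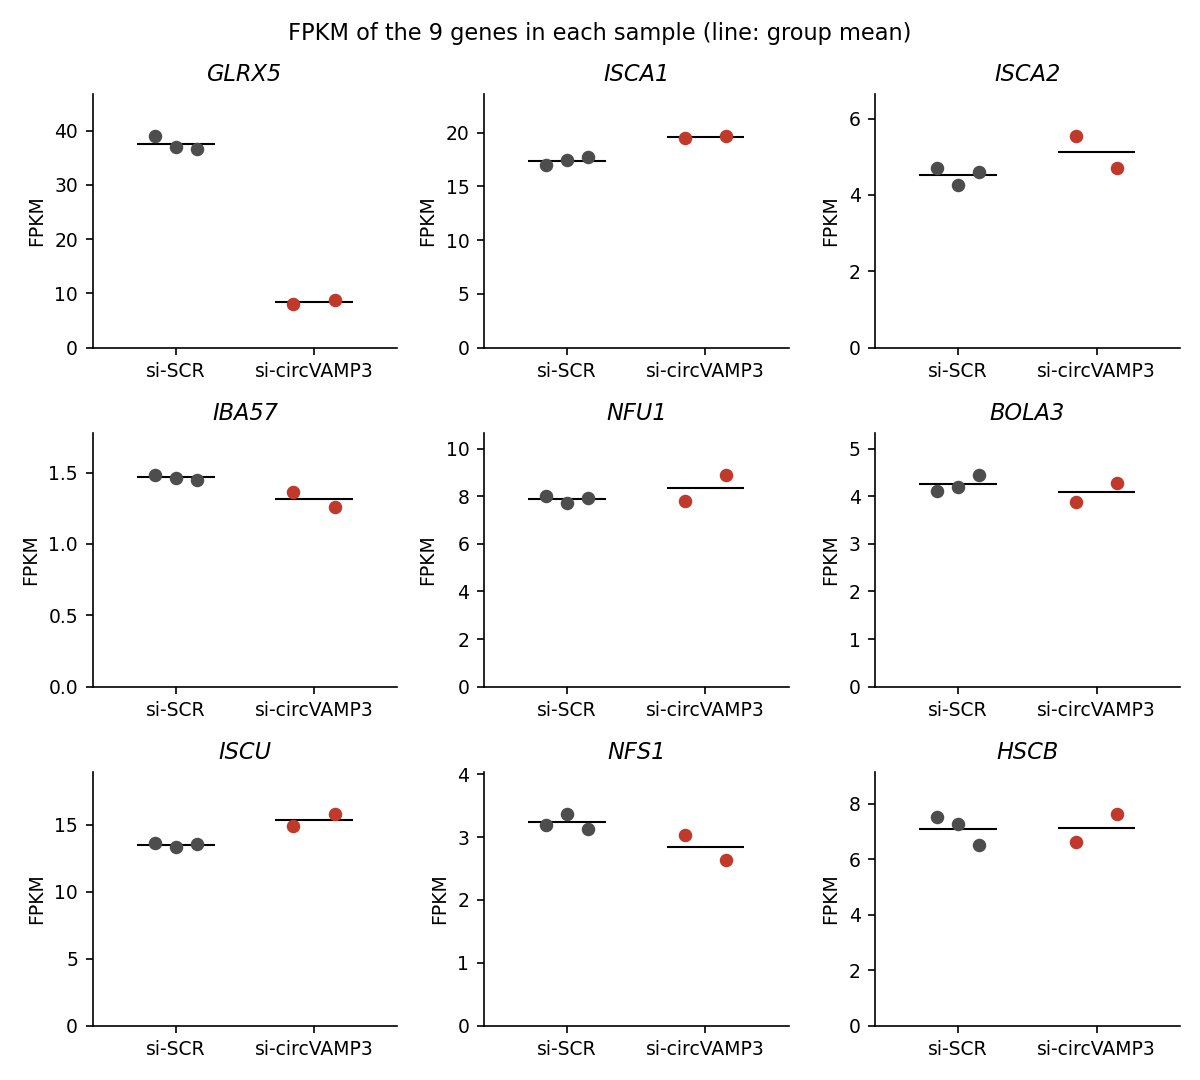
Each panel plots 1 of the 9 genes, with FPKM on the y axis from 0, 1 point per sample (grey, 3 si-SCR replicates; red, 2 si-circVAMP3 replicates) and a line at the group mean. GLRX5 lies at 36.7 to 39.0 FPKM in si-SCR and at 8.11 and 8.78 FPKM in si-circVAMP3, and the log2 differences of the other 8 genes lie within 0.18 of 0.

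Upstream of GLRX5, the scaffold gene ISCU measured 13.7, 13.3 and 13.6 FPKM in si-SCR and 14.9 and 15.8 FPKM in si-circVAMP3. Both treated samples were above all controls, and the log2 difference was 0.18 (standard error 0.048). The cysteine desulfurase NFS1 measured 3.19, 3.37 and 3.13 FPKM in si-SCR and 3.04 and 2.63 FPKM in si-circVAMP3. Its treated samples were both below the controls, and the log2 difference was -0.16 (standard error 0.078), or -0.08 without si-circVAMP3 replicate 2 and -0.25 without replicate 1. The co-chaperone HSCB overlapped between groups, with 7.53, 7.27 and 6.51 FPKM in si-SCR and 6.64 and 7.64 FPKM in si-circVAMP3, a log2 difference of 0.01 (standard error 0.085) that had no stable sign, from -0.09 without si-circVAMP3 replicate 2 and -0.05 without si-SCR replicate 3 to 0.10 without si-circVAMP3 replicate 1.

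Downstream of GLRX5, ISCA1, a partner in building the larger cluster type, measured 17.0, 17.4 and 17.7 FPKM in si-SCR and 19.5 and 19.7 FPKM in si-circVAMP3. The groups were separate, with a log2 difference of 0.17 (standard error 0.043). Its partner ISCA2 measured 4.70, 4.26 and 4.61 FPKM in si-SCR and 5.55 and 4.71 FPKM in si-circVAMP3. The lower treated sample lay next to the highest control, so the log2 difference of 0.16 (standard error 0.083) rested on si-circVAMP3 replicate 1, and it was 0.05 without that replicate. IBA57, a folate-dependent helper of the same step and the member with the lowest level, measured 1.48, 1.46 and 1.45 FPKM in si-SCR and 1.37 and 1.26 FPKM in si-circVAMP3. Both treated values were below the controls, by a log2 difference of -0.12 (standard error 0.075), or -0.075 without si-circVAMP3 replicate 2.

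The delivery factors overlapped between groups. NFU1 measured 8.004, 7.70 and 7.92 FPKM in si-SCR and 7.79 and 8.90 FPKM in si-circVAMP3, a log2 difference of 0.08 (standard error 0.067) that became -0.015 without si-circVAMP3 replicate 2 and 0.17 without replicate 1. BOLA3 measured 4.11, 4.19 and 4.45 FPKM in si-SCR and 3.88 and 4.28 FPKM in si-circVAMP3, a log2 difference of -0.05 (standard error 0.069) that became 0.01 without si-circVAMP3 replicate 1 and -0.12 without replicate 2. For NFU1, BOLA3 and HSCB the samples of 1 group therefore differed among themselves as much as the groups did.

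In control cells GLRX5 was the most abundant of the 9 genes per length, ahead of ISCA1, ISCU, NFU1, HSCB, ISCA2, BOLA3, NFS1 and IBA57 in that order in each si-SCR sample. The gene length behind FPKM equals that of all annotated exons for 8 of the 9 genes, which for some far exceeds the main transcript (4423 against 983 bases for ISCU, 3072 against 555 bases for BOLA3). For NFU1 it is 1.2 times the annotated exon length. The order between genes therefore holds for these lengths only, and that of NFU1 and GLRX5 in treated cells depends on the length taken for NFU1. Neighbours in this order of FPKM did not meet over the 3 controls, except ISCA2 (4.26 to 4.70 FPKM) and BOLA3 (4.11 to 4.45 FPKM). In si-circVAMP3 cells ISCA1 and ISCU led, and GLRX5 shared its range with NFU1. GLRX5 ranked 3 among the 9 in si-circVAMP3 replicate 1 and 4 in replicate 2. The other 8 kept their order in all 5 samples. Among all genes, GLRX5 held places 1059, 1150 and 1161 by FPKM in si-SCR and places 5041 and 4769 in si-circVAMP3.

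GLRX5 made up 39.6, 38.5 and 38.2% of the summed FPKM of the 9 genes in si-SCR and 11.5 and 11.9% in si-circVAMP3. The sum of the other 8 was 59.4 ± 0.342 FPKM (SD, n = 3) in si-SCR and 63.8 ± 1.58 FPKM (SD, n = 2) in si-circVAMP3, so the lower total in treated cells came from GLRX5. The ratio of GLRX5 to its downstream partner ISCA1 was 2.30, 2.12 and 2.07 in si-SCR and 0.415 and 0.446 in si-circVAMP3. The ratio of GLRX5 to the scaffold ISCU was 2.86, 2.77 and 2.70 in si-SCR and 0.543 and 0.555 in si-circVAMP3. At these gene lengths each ratio crossed 1 between the groups, from more GLRX5 than partner to less.

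**Figure D2:**
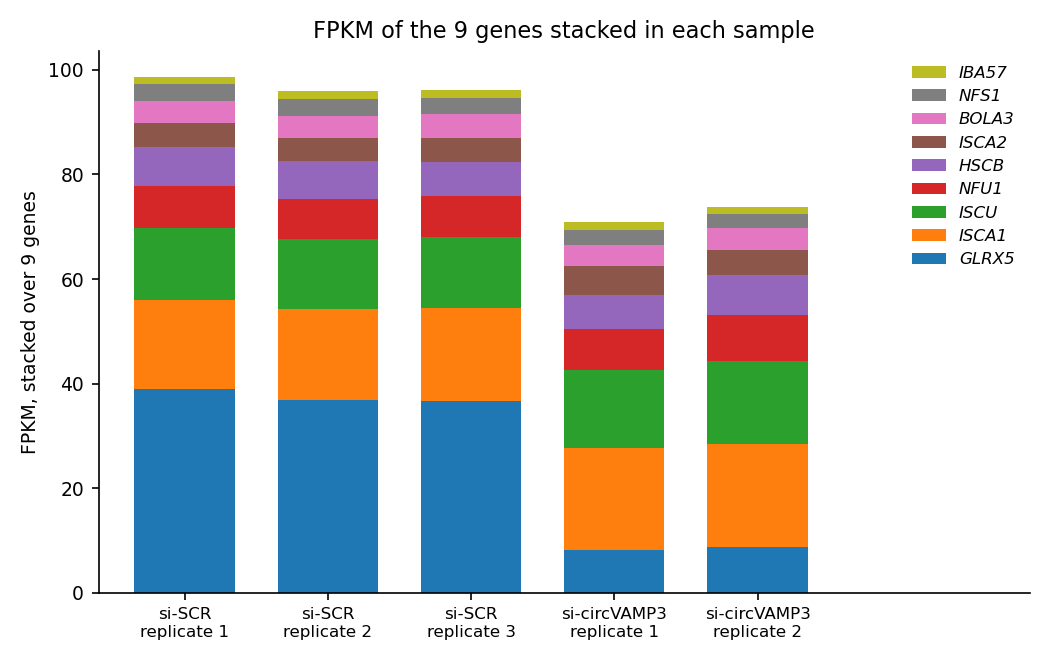
Stacked bars give the FPKM of the 9 genes in each of the 5 samples, from 0. The GLRX5 segment at the base shrinks from 38.2 to 39.6% of the bar in si-SCR to 11.5 and 11.9% in si-circVAMP3, and the segments above it keep their order.

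All 9 genes passed the filter on low values, FPKM of at least 1 in at least 2 samples, which kept 11253 genes. By the rule of an adjusted p below 0.05 from limma, 3 of the 9 would be called, GLRX5 lower and ISCA1 and ISCU higher. Of all 11253 genes 32.7% were called, 15.9% higher and 16.8% lower, and since the genes were chosen with this contrast known nothing is read from the 3. The FPKM ranges of the groups were apart for 6 of the 9 and for 59.9% of all genes. ISCA1 and ISCU did not pass without si-SCR replicate 1, without si-SCR replicate 2 or without either si-circVAMP3 replicate, where 1 of the 9 passed, and ISCU also did not pass with a replicate block. Over all genes the calls were fewer without si-SCR replicate 2 (989 higher and 1210 lower), without si-circVAMP3 replicate 1 (507 higher and 833 lower) and without si-circVAMP3 replicate 2 (469 higher and 766 lower).

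Among the 11253 genes GLRX5 had the lowest log2 difference. The next was KCNH2 at -1.68. Below -1 lay 50 genes and above 1 lay 8 genes, while the median over all genes was 0.01. The 8 other members lay within 0.18 of 0.

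**Figure D3:**
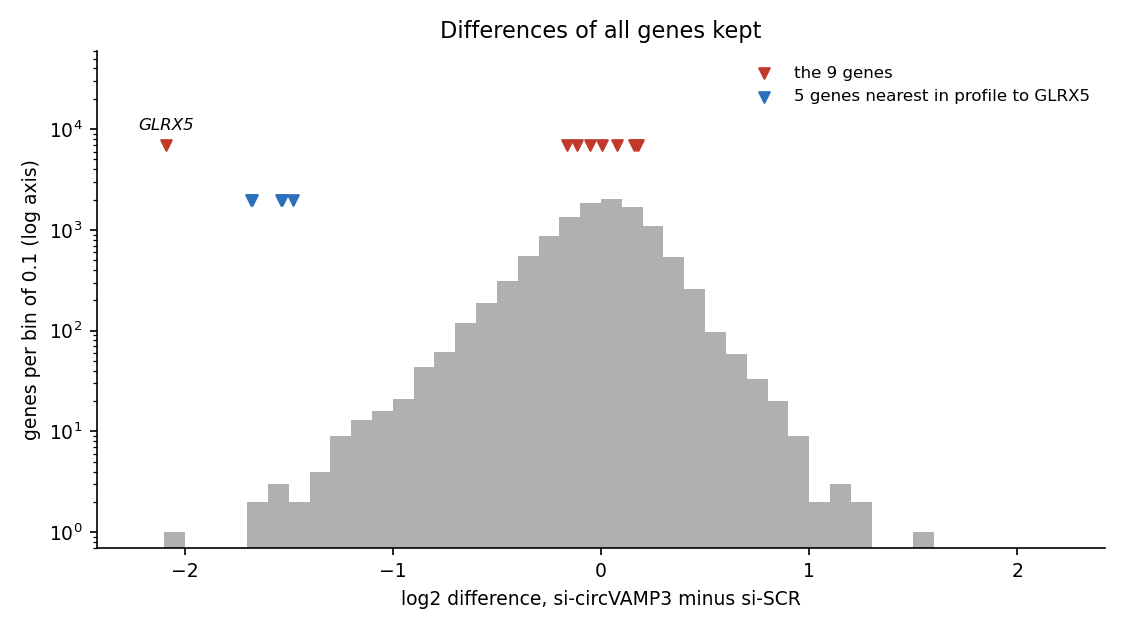
Grey bars count the 11253 genes by log2 difference (si-circVAMP3 minus si-SCR, bins of 0.1, log y axis). Red marks place the 9 genes and blue marks the 5 genes nearest in profile to GLRX5, with heights chosen for display. GLRX5 at -2.09 lies at the left edge, and the other 8 genes sit near 0.

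The genes most like GLRX5 were taken as the 5 with the smallest Euclidean distance between centred log2(FPKM + 0.5) profiles over the 5 samples. They were selected on the same 5 samples for a profile like that of GLRX5, so a low value in the treated samples follows from the choice and no test is given for them. They were TWF1 (distance 0.484), an actin-monomer binding protein, KCNH2 (0.528), a potassium channel, RYK (0.613), a Wnt receptor, WDR1 (0.629), an actin-disassembly factor, and ARPC1A (0.683), a subunit of the actin-nucleating Arp2/3 complex. TWF1 measured 20.5, 19.7 and 20.9 FPKM in si-SCR and 6.26 and 5.79 FPKM in si-circVAMP3, a log2 difference of -1.68 (standard error 0.054). WDR1 measured 43.6, 44.4 and 42.6 FPKM in si-SCR and 15.1 and 14.4 FPKM in si-circVAMP3, a log2 difference of -1.53 (standard error 0.043). The log2 differences of KCNH2, RYK and ARPC1A were -1.68, -1.54 and -1.48. None of the 5 treated means exceeded 33.9% of its control mean, against 22.5% for GLRX5.

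**Figure D4:**
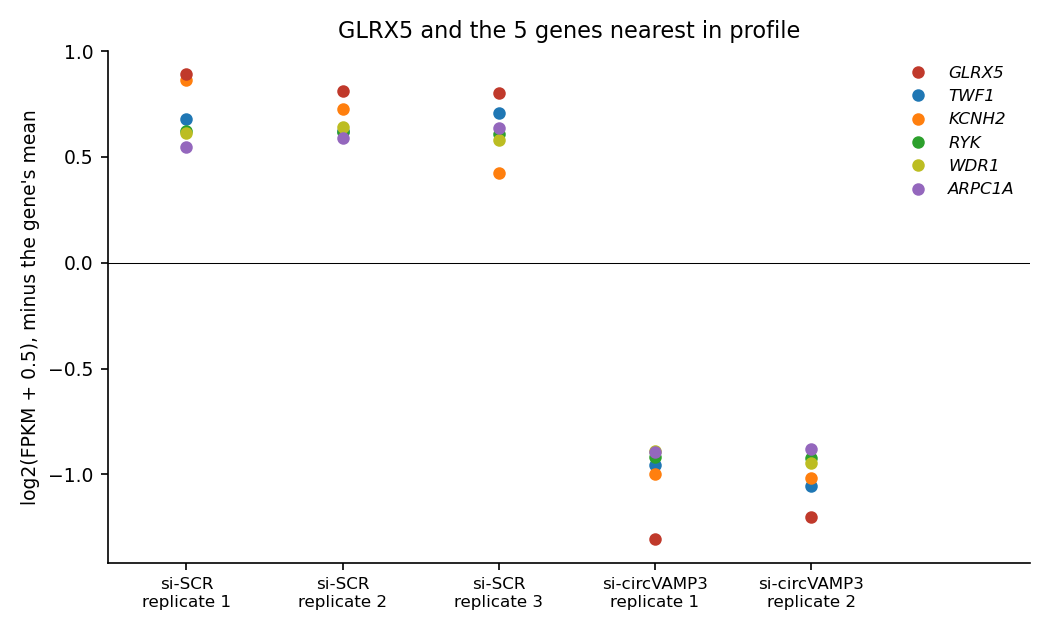
Points give log2(FPKM + 0.5) minus the gene's mean for GLRX5 (red) and its 5 nearest genes in each of the 5 samples. All 6 genes are above 0 in the si-SCR samples and below 0 in the si-circVAMP3 samples, with GLRX5 the lowest in both treated samples.

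The sequence of the siRNA was compared with the transcripts, as a description. The printed strand reads as the VAMP3 transcript does, and bases 2 to 8 of the strand complementary to it pair with GTGGACA. Which strand of the duplex is active is not given in the sources used here. GTGGACA was found in the main transcript of TWF1, KCNH2, RYK, WDR1 and ARPC1A, and in 14 of the 15 genes with the lowest log2 difference, GLRX5 being the exception. Of the 50 genes below -1 it was found in 38 (76%), against 3322 of 11226 genes in all (29.6%), at a median transcript length of 2990 bases for the 50 and 3176 bases for all. The median log2 difference was -0.08 for genes with these 7 bases and 0.04 for genes without. The same count for CGATGAT, the bases that pair with positions 2 to 8 of the printed strand, was 3 of the 50 and 6.49% of all. The named genes are among the 15 and the 15 are among the 50, so the counts for GTGGACA overlap.

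None of the 3 annotated GLRX5 transcripts held GTGGACA or CGATGAT, and the longest run GLRX5 shared with either strand of the siRNA was 8 bases, a length that 61% of genes reach. The main GLRX5 transcript held the shorter GTGGAC once, after the stop codon in exon 2 (chr14:95544295-95544313 for the 19 aligned bases, plus strand). It is shown because it holds the first 6 of the 7 bases without a break, with capitals where the base equals that of the siRNA.
GLRX5 transcript: aATatTttaTtGTGGACtT
Of these 19 bases 11 were identical, and GTGGAC occurs in 58.4% of main transcripts. Among the other members, the main transcripts of ISCA2 and NFS1 held GTGGACA, and 2 of the 5 annotated BOLA3 transcripts held it, the main one not among them. Their log2 differences were 0.16, -0.16 and -0.05. The main transcript of the host gene VAMP3 held GTGGACA 2 times, beside a log2 difference of -0.29. A match or its absence is a property of these letters, and the part of the siRNA's sequence in the GLRX5 difference was not tested.

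The wider iron-sulfur system was described with 4 further lists, 69 genes in all, of which 61 passed the filter. Of these 17 were called, 9 higher and 8 lower, or 27.9% beside 32.7% of all genes. All but NTHL1 stayed within 0.5 of 0, so none approached the difference of GLRX5. The count was sensitive to single samples. It was 10 without si-SCR replicate 1, 7 without si-SCR replicate 2, 18 without si-SCR replicate 3, and 4 and 2 without si-circVAMP3 replicates 1 and 2. For each gene called below, both treated samples lay on the same side of all 3 controls.

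Among 16 partners of mitochondrial assembly, 15 passed the filter and 3 were called (20%, beside 32.7% of all genes). The median log2 difference of the list was 0.03 (-0.015 without si-SCR replicate 1, -0.005 without si-SCR replicate 3). The chaperone HSPA9, which works with HSCB in handing the cluster to GLRX5, rose from 57.3, 56.8 and 57.7 FPKM to 63.4 and 64.1 FPKM (log2 difference 0.15, standard error 0.036, limma adjusted p = 0.0203). FDX1, a ferredoxin that supplies electrons, fell by 0.28 (standard error 0.080, limma adjusted p = 0.0376), and NUBPL, an assembly factor of respiratory complex I, fell by 0.34 (standard error 0.072, limma adjusted p = 0.0139). All 3 calls were lost without si-SCR replicate 2 and without either si-circVAMP3 replicate, with a limma adjusted p of up to 0.125 for HSPA9, 0.204 for FDX1 and 0.0909 for NUBPL over the alternatives. The FDX1 call was also lost with quantile normalization and with a replicate block, and the HSPA9 call in limma without the trend. LYRM4, which stabilises NFS1, had a log2 difference of 0.07 (limma adjusted p = 0.52), and FDX2, the ferredoxin of cluster synthesis, of -0.06 (limma adjusted p = 0.588). The acyl carrier protein NDUFAB1, most abundant of the list with a mean of 67.8 FPKM in si-SCR, stood at -0.03 (limma adjusted p = 0.741). BOLA1 had no row in the table.

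Among 14 genes of cytosolic assembly, 12 passed the filter and 4 were called (33.3%, beside 32.7% of all genes), 2 in each direction. The median log2 difference of the list was 0.12 (0.067 without si-SCR replicate 3, 0.073 without si-circVAMP3 replicate 2). CIAO1, part of the targeting complex, rose by a log2 difference of 0.19 (standard error 0.054, limma adjusted p = 0.0363) along with GLRX3. CIAO2B of the same complex fell by 0.20 (standard error 0.045, limma adjusted p = 0.0173), and the scaffold NUBP1 fell by 0.22 (standard error 0.045, limma adjusted p = 0.0123). The CIAO2B call was lost without either si-circVAMP3 replicate, the NUBP1 call without si-circVAMP3 replicate 2, and the CIAO1 call without either of these or si-SCR replicate 1 or 2. Over the alternatives their limma adjusted p reached 0.126, 0.0972 and 0.169. CIAPIN1, an electron carrier of the pathway, had a log2 difference of 0.16 (limma adjusted p = 0.105) and was called under 2 of 15 alternatives, without si-SCR replicate 3 (0.21) and with a replicate block (limma adjusted p 0.0239 to 0.358 over the alternatives). NUBP2 and NDOR1 were lowest in si-SCR replicate 3, at 6.29 and 4.83 FPKM, the control that stood apart. BOLA2 had no row and its near-identical copy BOLA2B did not pass the filter, so reads of this pair are uncertain.

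Among 15 mitochondrial proteins that hold clusters or depend on them, all passed the filter and 4 were called (26.7%, beside 32.7% of all genes). Their median log2 difference, 0.03, had no stable sign, with -0.035 without si-SCR replicate 3, -0.019 and -0.022 without si-circVAMP3 replicates 1 and 2, and -0.056 over the genes with a mean FPKM of at least 5. ETFDH, which passes electrons from fatty acid oxidation, fell by 0.38 (standard error 0.095, limma adjusted p = 0.0246), and NDUFV1 of complex I fell by 0.19 (standard error 0.053, limma adjusted p = 0.0355). The ETFDH call was lost without si-SCR replicate 1, si-SCR replicate 2 or si-circVAMP3 replicate 2 (limma adjusted p up to 0.152 over the alternatives), and the NDUFV1 call without any of these or si-circVAMP3 replicate 1 (up to 0.176). SDHB, the cluster subunit of complex II, rose by 0.14 (standard error 0.043, limma adjusted p = 0.0458), a call that was lost without any 1 of the 5 samples (limma adjusted p up to 0.256 over all alternatives). Lipoate synthase (LIAS) had a log2 difference of 0.20 (limma adjusted p = 0.146), ferrochelatase (FECH) of -0.04 (limma adjusted p = 0.648) and the Rieske protein UQCRFS1 of -0.07 (limma adjusted p = 0.326). The LIAS difference was 0.095 without si-circVAMP3 replicate 2 and 0.312 without si-circVAMP3 replicate 1.

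Among 24 cytosolic and nuclear cluster proteins, 19 passed the filter and 6 were called (31.6%, beside 32.7% of all genes), 5 of them higher. The median log2 difference of the list was 0.10. The base-excision glycosylase NTHL1 fell from 7.28, 6.98 and 5.59 FPKM to 3.89 and 4.12 FPKM (log2 difference -0.65, standard error 0.110, limma adjusted p = 0.00671), a call lost without si-circVAMP3 replicate 1 (limma adjusted p = 0.0577, the highest of a range from 0.000646 over the alternatives). The replicative polymerase subunit POLE rose by a log2 difference of 0.25 (limma adjusted p = 0.0119), the helicases DDX11 by 0.31 (limma adjusted p = 0.0182), DNA2 by 0.26 (limma adjusted p = 0.0317) and ERCC2 by 0.16 (limma adjusted p = 0.0499), and DPH1, which takes part in diphthamide synthesis, by 0.30 (limma adjusted p = 0.0368). Each of these 5 lost its call without either si-circVAMP3 replicate, DPH1 and DNA2 also without si-SCR replicate 1 or 2, and ERCC2 without any 1 of the 5 samples. Over the alternatives the limma adjusted p reached 0.0905 for POLE, 0.103 for DDX11, 0.174 for DNA2, 0.228 for ERCC2 and 0.191 for DPH1. The diphthamide enzyme DPH2 and the ribosome-recycling factor ABCE1, the 2 most abundant of the list, had log2 differences of 0.05 (limma adjusted p = 0.351) and -0.02 (limma adjusted p = 0.75).

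In the lipoate pathway, LIAS is the enzyme that holds clusters, and NFU1 and BOLA3 deliver them to it. All 12 of its genes passed the filter and 4 were called (33.3%, beside 32.7% of all genes). Their median log2 difference was 0.07, with 0.106 without si-SCR replicate 3, 0.110 without si-circVAMP3 replicate 2 and 0.135 over the genes with a mean FPKM of at least 5. The mitochondrial fatty acid synthesis enzymes OXSM and MCAT rose by 0.32 (limma adjusted p = 0.0134) and 0.27 (limma adjusted p = 0.0099). DLST, a lipoate-bearing subunit of the oxoglutarate dehydrogenase complex, rose by 0.21 (limma adjusted p = 0.029), and DLD, the shared reductase of the lipoate enzymes, fell by 0.16 (limma adjusted p = 0.0236). DLAT, the lipoate-bearing subunit of pyruvate dehydrogenase, was at 33.6 to 36.1 FPKM in si-SCR and at 34.6 and 34.4 FPKM in si-circVAMP3. Each of the 4 calls was lost without si-circVAMP3 replicate 1 and without si-circVAMP3 replicate 2, and those of DLST and DLD also without si-SCR replicate 1 or 2. Over the alternatives the limma adjusted p reached 0.102 for OXSM, 0.0741 for MCAT, 0.186 for DLST and 0.141 for DLD.

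**Figure D5:**
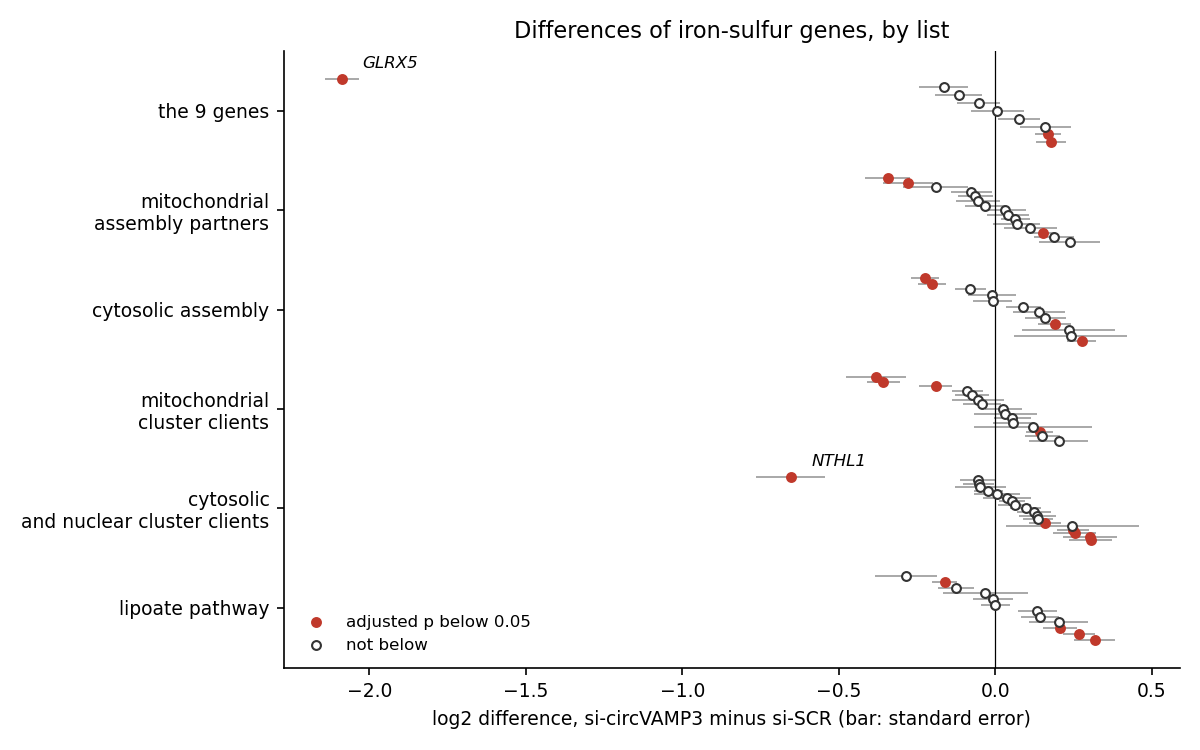
Each point is a gene that passed the filter, by log2 difference (si-circVAMP3 minus si-SCR) with its standard error as a bar, in 6 rows: the 9 genes chosen on this contrast, 4 iron-sulfur lists and the lipoate pathway. Filled points have a limma adjusted p below 0.05, which is no test for the 9 genes, since they were chosen on this contrast. GLRX5 at -2.09 and NTHL1 at -0.65 lie outside the range of -0.5 to 0.5 that holds the others.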

How the data were processed

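Polyadenylated RNA of RH4 cells was sequenced from 3 si-SCR and 2 si-circVAMP3 cultures, stated in the study's methods to be biological replicates. Per the submitters' processing notes and those methods, reads were trimmed with Trimmomatic, aligned to GRCh38 with STAR 2.5.2b and counted per gene with HTSeq by strand, and the authors removed genes with low counts and computed FPKM with edgeR. The deposited FPKM values of all 13822 genes were used, and 13783 identifiers were matched to symbols.

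Whole reads were recovered from the ratios of FPKM within each gene for 100.0% of genes (relative tolerance 1e-12), up to a factor common to all samples of a gene. The same ratios gave the relative depth of each sample. The gene length that these reads and FPKM imply was within 1% of the exon length in GENCODE release 44 for 76.1% of genes. It differed for the others, NFU1 among them (1.2 times), and a common factor lost in the recovery would make the implied length too short. Genes with FPKM of at least 1 in at least 2 samples were kept. Differences are on the log2(FPKM + 0.5) scale, which understates those of low genes, and come from limma 3.58.1 (lmFit, eBayes with trend) in R 4.3.3, two-sided, with Benjamini-Hochberg adjustment over all 11253 genes, and calls at an adjusted p below 0.05. Tables were read with Python 3.11.15. The code was tested on simulated data. An exact permutation test of 3 against 2 samples cannot give a p below 0.1, and was not used.

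The 9 genes and the gene lists were chosen with earlier results of these data known. In each list the called genes were named, at most 6 by size of difference, with the 2 most abundant, certain genes of the pathway, VAMP3 and the 5 nearest to GLRX5. Of the genes this rule gives, 4 are not reported one by one but stay in the counts and medians of their lists. MYOD1, MYMK, COL1A1, DCN, PDGFRA, PECAM1, NUBP2 and NDOR1 were named after their values were seen, as were the 15 and 50 genes with the lowest differences. Transcript sequences and coordinates are those of GENCODE release 44 on GRCh38, with 1 main (canonical) transcript per gene, and the siRNA sequence is from the study's reagent list. The alternatives were another pseudocount (0.1 or 1), filter, scaling, variance prior or call rule, a replicate block, and each sample left out, 14 in all. Voom weights on the recovered reads were added after the data had been seen.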

Additional observations from a re-analysis of the deposited data

How the results depend on the processing

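The log2 difference of GLRX5 was -2.03 with a pseudocount of 1, and between -2.144 and -2.035 with 1 sample left out. With an absolute log2 difference of at least 0.58 also required, 125 genes were called higher and 314 lower. Among them were 1 gene of the iron-sulfur lists (NTHL1) and 1 of the 9 genes (GLRX5), since that rule sets a minimum size. Of the calls 28.5% were then higher, against 48.7% without that rule. With 1 sample left out, 469 to 2014 genes were called higher, 766 to 1993 lower, 2 to 18 of the iron-sulfur lists and 1 to 3 of the 9 genes. The lowest counts over all genes came from leaving out a si-circVAMP3 replicate, where the lone treated sample is assumed to vary like the controls, and 37.8 and 38% of the calls were higher.

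Replicates 1 and 2 share only a number, since nothing states that they share a batch. Across genes, replicate 1 minus replicate 2 correlated at -0.16 between the groups. A replicate block gave 1575 genes higher and 1707 lower, among them 15 genes of the iron-sulfur lists and 2 of the 9 genes. The GLRX5 log2 difference was then -2.105. Under this replicate block the uncalled genes ABCE1 and DLAT changed sign, to 0.010 and 0.031, as did the HSCB log2 difference, to -0.050. The replicate block also lost the calls of FDX1, SDHB, ERCC2, DLD and GLRX2, and it gained those of CIAPIN1, DES, FGFR4 and COL3A1. The member ISCU, which carries no test, did not pass the call rule under the block. Since si-SCR replicate 3 has no treated sample of its number, the replicate block also takes it out of the difference. The log2 differences under the block therefore equal those without si-SCR replicate 3, as for GLRX5 at -2.105. CIAPIN1, DES, FGFR4 and COL3A1 were called in both fits. The sign changes and gained calls thus cannot be put down to the block alone.

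Further uncalled genes near 0 changed sign, and the cause was not tested. The DLAT log2 difference was 0.003 with median-ratio rescaling, and the FTH1 log2 difference was -0.023 with quantile normalization. With 1 sample left out, NDUFAB1 ranged from -0.127 to 0.065, ABCE1 from -0.040 to 0.010, DLAT from -0.019 to 0.031 (0.003 without si-circVAMP3 replicate 2), UROD from -0.093 to 0.083 (0.03 without si-SCR replicate 2), and FTH1 from -0.004 to 0.181. Voom on the recovered reads, an alternative chosen after seeing the data, called 1971 genes higher and 2015 lower, among them 17 genes of the iron-sulfur lists. In limma without the trend the calls of HSPA9, CIAO1, NDUFV1, SDHB, ERCC2, DLD and PRDX3 were lost, and with quantile normalization those of FDX1, SDHB and PRDX3. ERCC2 was also lost with a pseudocount of 1 and with no filter on low values. Of 49 genes that the naming rule gives with a test, all 49 kept their direction and call with a pseudocount of 0.1, 48 with median-ratio rescaling, 45 with quantile normalization and 22 without si-circVAMP3 replicate 2. With 5 samples and a median standard error of 0.069, small differences could not be resolved.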

Other observations

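Lists of iron handling, redox and heme genes share a few genes with the lists above, GLRX3 and FECH among them. Of 12 iron-handling genes that passed the filter 3 were called (25%), all higher, beside 32.7% of all genes, with a median log2 difference of 0.11. Without si-SCR replicate 3 the calls were 6, 5 higher and 1 lower. The ferritin light chain FTL, which stores iron, measured 1024, 1152 and 1046 FPKM in si-SCR and 1525 and 1629 FPKM in si-circVAMP3 (log2 difference 0.56, standard error 0.065, limma adjusted p = 0.00191), while the heavy chain FTH1 had a log2 difference of 0.09 (limma adjusted p = 0.302). Both ferritin genes have processed pseudogenes that can take up reads. The heme-degrading enzyme HMOX1 measured 8.71, 9.12 and 7.36 FPKM in si-SCR and 14.8 and 12.7 FPKM in si-circVAMP3 (log2 difference 0.68, standard error 0.104, limma adjusted p = 0.00482), and the endosomal iron reductase STEAP3 rose by 0.44 (limma adjusted p = 0.0227), a call lost without either si-circVAMP3 replicate (limma adjusted p up to 0.132 over all alternatives).

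A list of 9 genes held glutaredoxins and thioredoxins with their reductases and the peroxidase PRDX3, but not GLRX5. All 9 passed the filter and 6 were called (66.7%, beside 32.7% of all genes), 3 in each direction and GLRX3 among them. Their median log2 difference was 0.09, with 0.050 and 3 calls without si-circVAMP3 replicate 2, and 0.141 over the genes with a mean FPKM of at least 5. Cytosolic thioredoxin TXN rose by 0.47 (standard error 0.037, limma adjusted p = 0.000595), from 233, 227 and 232 FPKM to 321 and 317 FPKM. Mitochondrial thioredoxin TXN2 fell by 0.53 (standard error 0.065, limma adjusted p = 0.0023), from 50.1, 57.7 and 53.4 FPKM to 37.9 and 36.2 FPKM, and the reductase TXNRD1 fell by 0.38 (limma adjusted p = 0.0019). TXN, TXN2 and TXNRD1 were called with each of the 5 samples left out in turn. GLRX2, the other mitochondrial glutaredoxin, fell by 0.29 (limma adjusted p = 0.0248) and the peroxidase PRDX3 rose by 0.15 (limma adjusted p = 0.0438), and both calls were lost without si-SCR replicate 2 and without either si-circVAMP3 replicate, that of PRDX3 also without si-SCR replicate 1 (limma adjusted p up to 0.148 and 0.24 over the alternatives). Of 8 heme synthesis genes 3 were called (37.5%, beside 32.7% of all genes). ALAS1, the entry enzyme, was higher by 0.36 (limma adjusted p = 0.00697) while CPOX fell by 0.30 (limma adjusted p = 0.00805). The ALAS1 call was lost without si-circVAMP3 replicate 1, and the CPOX call without either si-circVAMP3 replicate (limma adjusted p up to 0.0629 and 0.0678 over the alternatives). Without si-circVAMP3 replicate 1, and also without si-circVAMP3 replicate 2, 1 gene of this list was called. UROD, the most abundant, had a mean of 21.9 FPKM in si-SCR and 21.8 FPKM in si-circVAMP3 (limma adjusted p = 0.963).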
